A study of Mus musculus with 12 samples.

Results

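The extracellular matrix that ensheathes neurons was followed here through 10 genes: the lectican proteoglycans Acan, Bcan, Ncan and Vcan, the hyaluronan link proteins Hapln1 and Hapln4, the tenascins Tnr and Tnc, the receptor phosphatase Ptprz1 and the hyaluronan synthase Has2. They were given by name as a family, with earlier results of these data known, and were not picked by a threshold on these data. Each matched 1 of the 43629 gene rows of the count table, and all 10 were among the 15241 genes with enough counts to be tested. The IFNG group held 6 libraries of mouse cortical neuronal cultures with a lentivirus that overexpresses Ifng, the interferon-gamma gene. It was added 7 days into culture, and RNA was taken 10 days after that. The Control group held 6 libraries of the same kind of culture labelled as control. One protocol text stands for all 12 samples, so it is not given in the sources read here which construct Control cultures received, which promoter drives Ifng, or the strain and age of the mice. The question addressed is what lasting interferon-gamma exposure does to neurons.

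Perineuronal nets are lattices of matrix around the cell bodies and dendrites of certain neurons, best known from fast-spiking interneurons of the cortex. A hyaluronan chain, spun out by a synthase in the cell membrane, is the backbone. Lecticans bind it at one end, link proteins clamp that bond, and tenascins tie the other ends of several lecticans together. Lecticans carry chondroitin sulfate chains, and glia as well as neurons secrete them. Nets form late in the maturing cortex and are known for restraining plasticity.

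Of the 10 genes, Ptprz1, Bcan and Has2 rose in IFNG cultures and Acan and Tnc fell, while Ncan, Vcan, Hapln1, Hapln4 and Tnr did not pass the test. The count was thus 3 higher and 2 lower, where 14.3% of all tested genes were higher and 9.79% lower, together 24.1%. A gene is said to rise or fall where edgeR's quasi-likelihood test gave a Benjamini-Hochberg adjusted p under 0.05 over all tested genes. The median log2 fold change of the 10 was -0.09, beside -0.02 over all genes tested. In 2 of the 10, Ptprz1 and Has2, no IFNG library overlapped a Control library, which held for 12.8% of all tested genes (8.75% with IFNG higher, as in both, and 4.09% with IFNG lower).

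Total counts ran from 13875435 to 34239380 in IFNG and from 14408343 to 20299507 in Control libraries. Ifng itself was read at 4.98 to 17.9 CPM (counts scaled to a common library total) in IFNG libraries and at no more than 0.17 CPM in Control libraries, so every label matched its transgene. Of all genes, 2184 were higher and 1492 lower in IFNG. Scaled to totals from which risen genes were removed, 2954 were higher and 750 lower, and the median of the log2 fold changes shifted to 0.10. Of 17 listed astrocyte markers 15 were tested, and all 15 rose. The summed level of that list was 5606 to 8444 CPM in IFNG libraries, against 3056 to 3370 CPM in Control libraries. In bulk RNA, a change in the number of cells of a type and a change in RNA per cell cannot be told apart.

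The promoters of the members that changed are shown so that their letters can be read beside the values. The 250 bases before the start were read from RefSeq (GRCm38.p6) for the 4 such members with an entry. Capitals mark matches, on either strand, to the core of an interferon regulatory factor element (GAAANNGAA, in Tnc), to the NF-kappa-B consensus (in Acan) or to TATAAA (in Tnc). The window of Ptprz1 is chr6:22875252-22875501 (plus strand), that of Bcan chr3:88000357-88000606 (minus), that of Acan chr7:79052976-79053225 (plus) and that of Tnc chr4:64047016-64047265 (minus; the start further upstream of its 2 annotated starts).
Ptprz1: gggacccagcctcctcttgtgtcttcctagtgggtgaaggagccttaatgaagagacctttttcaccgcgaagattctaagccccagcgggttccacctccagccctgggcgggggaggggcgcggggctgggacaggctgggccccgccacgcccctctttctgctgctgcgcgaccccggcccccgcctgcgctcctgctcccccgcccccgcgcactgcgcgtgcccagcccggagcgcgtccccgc
Bcan: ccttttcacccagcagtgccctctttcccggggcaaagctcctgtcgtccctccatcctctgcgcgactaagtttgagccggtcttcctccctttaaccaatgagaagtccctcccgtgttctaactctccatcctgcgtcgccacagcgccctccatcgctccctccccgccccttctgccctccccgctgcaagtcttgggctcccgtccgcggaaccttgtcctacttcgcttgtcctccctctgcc
Acan: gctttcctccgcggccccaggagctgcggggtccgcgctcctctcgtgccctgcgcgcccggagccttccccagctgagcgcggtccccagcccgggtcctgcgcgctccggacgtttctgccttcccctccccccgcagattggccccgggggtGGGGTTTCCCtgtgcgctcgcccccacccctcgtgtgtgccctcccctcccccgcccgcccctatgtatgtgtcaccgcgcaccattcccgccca
Tnc: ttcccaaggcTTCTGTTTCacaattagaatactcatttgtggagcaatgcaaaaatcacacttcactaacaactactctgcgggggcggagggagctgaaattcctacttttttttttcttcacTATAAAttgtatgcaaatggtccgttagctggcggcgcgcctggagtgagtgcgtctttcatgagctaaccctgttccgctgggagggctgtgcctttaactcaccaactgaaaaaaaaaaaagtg

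On both strands, the letters GAAANNGAA occurred in 7.13% of 32851 RefSeq windows of the same length. They occurred in 1 of the 9 windows of the 8 members with an entry, that of Tnc, where they start 240 bases before the start. The NF-kappa-B consensus occurred in 5% of all windows and in 1 of the 9, that of Acan, 95 bases before the start. TATAAA occurred in 12.4% of all windows and in 3 of the 9, those of Ncan and both of Tnc. Ptprz1 and Bcan, which rose, held none of these 3 motifs, which says only that the letters are not in those windows, and the matches printed did not overlap one another. Of the 4 motifs searched, 1 is not reported here, so these 3 are not a full account of the search. The windows of Acan and Ptprz1 were rich in CG dinucleotides, with 26 and 22 against a median of 6, while that of Bcan held 16 and the printed one of Tnc held 8.

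**Figure D1:**
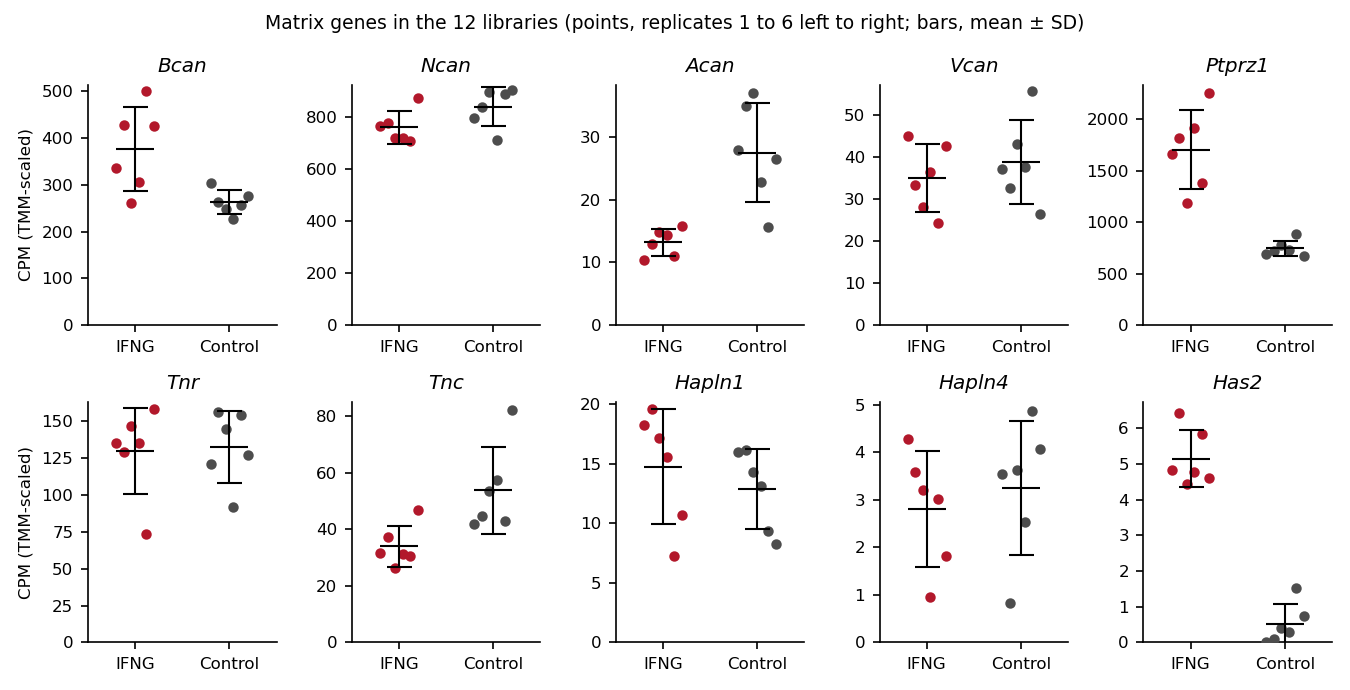
Level of each of the 10 genes in CPM (counts scaled to a common library total by TMM; linear axes from 0) in each library, 6 IFNG libraries at the left of a panel and 6 Control libraries at the right. Bars give the mean ± SD. Ptprz1 and Has2 separate the groups completely, and Acan nearly does, with IFNG libraries at 10.4 to 15.8 CPM and Control libraries at 15.6 to 37.0 CPM.

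Ptprz1 (chr6:22875502-23052916 in GRCm38, plus strand) had the highest level of the 10 in IFNG libraries. It encodes a receptor tyrosine phosphatase whose secreted splice form, phosphacan, is itself a chondroitin sulfate proteoglycan of the net, and counts per gene do not separate the forms. Its lowest, median and highest level was 1188, 1740 and 2255 CPM in IFNG libraries, against 670, 726 and 880 CPM in Control libraries. Every IFNG library thus stood above every Control library. The log2 fold change was 1.19 ± 0.13 (SE; adjusted p = 5.48e-07), with a 95% interval of 0.92 to 1.46, or 2.28-fold. Among 173 listed matrix and marker genes, the one whose centred log2 CPM ran closest to Ptprz1 over the 12 libraries was Sox9, a transcription factor of astrocytes and their progenitors, at a root mean square difference of 0.16. The next was Sox2 at 0.24, and both rose themselves, by 1.14 and 1.05. The distance spans both groups, so here and below a direction shared with a near gene is partly built in. Set against the summed astrocyte markers, Ptprz1 stood at 23.7 ± 3.7 CPM per 100 CPM of markers in IFNG and 23.3 ± 2.18 in Control libraries (SD, n = 6 each). The ranges overlapped, at 17.4 to 26.8 in IFNG and 20.6 to 26.8 in Control libraries. The part of astrocyte RNA in the rise was not tested.

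Of the 4 lecticans 1 rose, 1 fell and 2 did not pass. Bcan (chr3:87987531-88000230 in GRCm38, minus strand), for brevican, a lectican made by astrocytes and by some neurons, rose. Its level was 261, 381 and 501 CPM (lowest, median, highest) in IFNG libraries, against 227, 261 and 304 CPM in Control libraries. The groups overlapped because IFNG 3, at 261 CPM, lay inside the Control range; the other IFNG libraries, from 306 CPM up, lay above the highest Control library. The fitted log2 fold change was 0.52 ± 0.13 (adjusted p = 0.00619), or 1.43-fold. Tested against a fold change of 1.2 rather than against no change, the call was lost (adjusted p = 0.0663), and over all 22 alternatives its log2 fold change lay between 0.39 and 0.63. The nearest listed genes were Chpf2, of chondroitin synthesis, at a root mean square difference of 0.11, and Cspg5, which encodes the brain proteoglycan neuroglycan C, at 0.13. Set against astrocyte markers, Bcan stood at 5.23 ± 0.814 CPM per 100 CPM of markers in IFNG and 8.24 ± 0.734 in Control libraries (SD, n = 6 each), and these ranges did not overlap. That ratio depends on the markers summed, which rose by 0.29 (Atp1b2), less than Bcan, to 2.28 (Id3). Slc1a3, which rose by 1.65, averaged 2429 CPM of a summed 7169 CPM in IFNG libraries.

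Acan (chr7:79053483-79115099, plus strand) encodes aggrecan, the lectican most often used to stain nets, which cortical neurons make. It fell to 0.482 of its Control level. Its level was 10.4, 13.6 and 15.8 CPM in IFNG libraries, against 15.6, 27.2 and 37.0 CPM in Control libraries. Control 5, the lowest Control library, lay just under the highest IFNG library, IFNG 6, and all others were separate. Its log2 fold change was -1.05 ± 0.18 (adjusted p = 1.47e-04), and it stayed between -1.17 and -0.95 in the alternatives. The nearest listed genes were Gpc3, a glypican, and Gad1, an enzyme of GABA synthesis, at root mean square differences of 0.35 and 0.36, and both fell, by 0.70 and 0.68. Among neuronal markers 5 of 14 fell, and the median of that list was -0.25 on the log2 scale. Per 100 CPM of neuronal markers, Acan stood at 0.257 ± 0.0381 CPM in IFNG libraries, against 0.448 ± 0.142 CPM in Control ones (mean ± SD, n = 6 each). Per 100 CPM of markers of net-bearing interneurons it stood at 1.77 ± 0.29 CPM in IFNG libraries, against 3.21 ± 0.723 CPM in Control libraries, with ranges of 1.36 to 2.23 in IFNG and 2 to 4.09 in Control libraries. The genes of the interneuron list are not all confined to cells with nets, so that ratio is not a level per net-bearing cell. Gad1 averaged 154 of a summed 746 CPM over the IFNG libraries, against 246 of 851 CPM over the Control libraries. Pvalb averaged only 0.605 CPM over the IFNG libraries, against 0.294 CPM over the Control libraries. The list also moved both ways, as 2 of its 11 tested genes rose and 3 fell. The part of neurons and interneurons in the fall of Acan was not tested.

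Ncan, for neurocan, the main lectican of the developing forebrain, did not pass. Its level was 706, 743 and 874 CPM in IFNG libraries, against 713, 864 and 903 CPM in Control libraries. On the log2 scale the fold change was -0.14 ± 0.085, with a 95% interval of -0.32 to 0.04 (adjusted p = 0.244). The groups overlapped through IFNG 6, at 874 CPM, and Control 4, at 713 CPM. The other IFNG libraries lay at 706 to 775 CPM and the other Control libraries at 795 to 903 CPM. Its nearest genes, the adhesion molecule gene Nrcam (0.10) and the neuronal tubulin gene Tubb3 (0.12), did not pass either. Per 100 CPM of neuronal markers, Ncan stood at 14.8 ± 1.76 CPM in IFNG libraries, against 13.6 ± 1.48 CPM in Control libraries. Per 100 CPM of astrocyte markers it stood at 10.8 ± 1.54 CPM in IFNG libraries, against 26.3 ± 2.67 CPM in Control libraries, and those ranges did not overlap. That gap follows from the summed markers, which by themselves did not overlap (5606 to 8444 CPM in IFNG and 3056 to 3370 CPM in Control libraries). Vcan, for versican, which cells of the oligodendrocyte lineage and astrocytes make, stood at 24.3, 34.9 and 45 CPM in IFNG libraries, against 26.5, 37.4 and 55.7 CPM in Control libraries. Its log2 fold change was -0.15 ± 0.17, with an interval of -0.50 to 0.20 (adjusted p = 0.57). The groups shared most of their range, and the nearest genes were Csgalnact2, of chondroitin chain start, at 0.24 and the metalloprotease gene Mmp16 at 0.25.

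Per kilobase of exon, Bcan and Ncan together made up nearly all lectican RNA in both groups. Bcan held 45.3 ± 5.86% of the level of the 4 lecticans per kb in IFNG and 34.5 ± 2.53% in Control libraries (SD, n = 6 each). Ncan held 52.6 ± 5.49% in IFNG and 62.1 ± 2.43% in Control libraries. Acan held 0.888 ± 0.202% in IFNG and 1.96 ± 0.535% in Control libraries. The ratio of Bcan to Acan per kb was 32.5 to 83.7 in IFNG and 12.3 to 30.4 in Control libraries, so each IFNG library had a higher ratio than each Control library. That ratio divides a gene that rose by one that fell, so it restates those changes. The ratio of Ncan to Bcan per kb was 0.795 to 1.56 in IFNG and 1.48 to 2.04 in Control libraries, with overlapping ranges. The summed level of the 4 was 202 ± 25.7 CPM per kb in IFNG and 188 ± 13.7 CPM per kb in Control libraries (SD, n = 6 each), and those ranges overlapped. These shares are a description with no test, and their size depends on the exon lengths used.

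**Figure D2:**
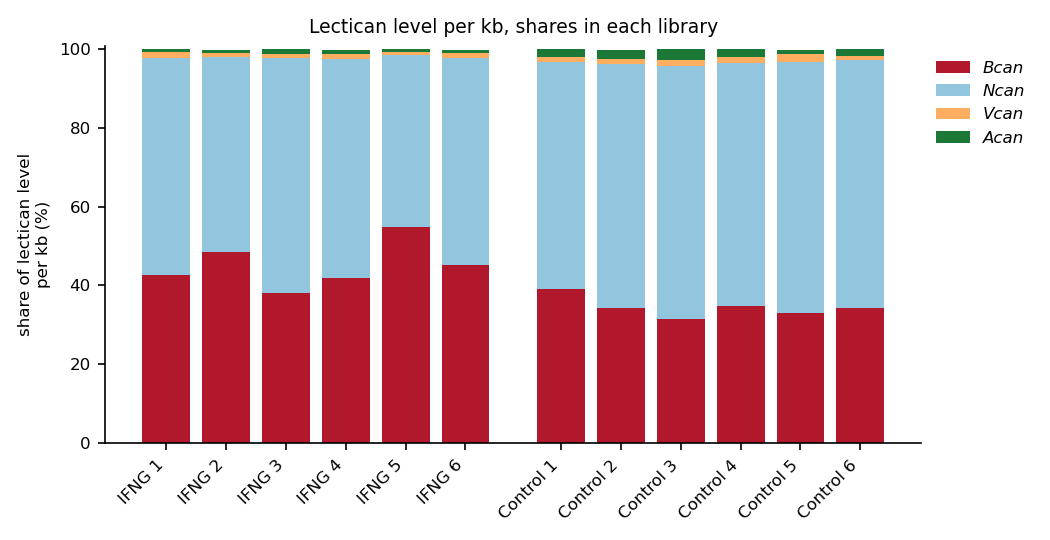
Share of each lectican in the summed level of the 4 lecticans, in CPM per kb of exon, for each of the 12 libraries (bars add up to the whole). Bcan takes 38.2 to 54.9% in IFNG libraries and 31.6 to 39.1% in Control libraries, and Acan takes 0.656 to 1.18% in IFNG libraries and 1.08 to 2.56% in Control libraries.

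Each lectican gene lies beside a link protein gene in GRCm38. Vcan (chr13:89655312-89742509, minus strand) is 43.7 kb from Hapln1 (chr13:89539796-89611652, plus strand). Ncan (chr8:70093085-70120873, minus strand) is 2.2 kb from Hapln4 (chr8:70083457-70090862, plus strand). The annotated ends of Acan and Hapln3, on chromosome 7, are 2 bases apart on opposite strands, and Bcan and Hapln2, on chromosome 3, are 21.5 kb apart. The link gene beside Acan, Hapln3, held 100 counts over the IFNG and 143 over the Control libraries, with a log2 fold change of -0.64 ± 0.45 (adjusted p = 0.337). Hapln2, beside Bcan, held 63 counts over the IFNG and 45 over the Control libraries, too few to be tested.

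Neither link protein member passed. Hapln1, for the link protein that holds aggrecan and versican to hyaluronan, stood at 7.26, 16.4 and 19.6 CPM in IFNG libraries, against 8.28, 13.7 and 16.2 CPM in Control libraries. The lowest libraries were IFNG 5 and IFNG 6 at 7.26 and 10.7 CPM, and Control 6 and Control 5 at 8.28 and 9.32 CPM. Its log2 fold change was 0.20 ± 0.22, with a 95% interval of -0.26 to 0.66 (adjusted p = 0.563). The nearest genes were Gad2, of GABA synthesis, at a root mean square difference of 0.29 and the integrin gene Itgb8 at 0.32. Hapln4, a link protein of nets that binds brevican, was scarce, with 362 counts over the IFNG and 350 over the Control libraries. It stood at 0.955, 3.10 and 4.28 CPM in IFNG libraries, against 0.82, 3.58 and 4.86 CPM in Control libraries. The fitted log2 fold change was -0.20 ± 0.37, and the interval of -0.98 to 0.57 leaves its direction unresolved (adjusted p = 0.748). No listed gene ran close to it, the nearest being Sdc1 at 0.67.

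Of the tenascins Tnc fell and Tnr did not pass. Tnc (chr4:63959785-64047015, minus strand) encodes tenascin-C, a glycoprotein of the developing and injured brain that astrocytes and progenitors make. It stood at 26.3, 31.5 and 46.8 CPM in IFNG libraries, against 41.9, 49.1 and 82.4 CPM in Control libraries. Of the IFNG libraries only IFNG 6, at 46.8 CPM, reached into the Control range. Tnc fell by 0.66 on the log2 scale (SE 0.16, adjusted p = 0.00495), or by 0.49 without Control 6, the highest library (adjusted p = 0.0152). The guidance gene Sema3a was among the 2 nearest listed genes, at a root mean square difference of 0.32, and it fell. The summed astrocyte markers stood higher in the same IFNG libraries: per 100 CPM of them Tnc stood at 0.474 ± 0.0628 CPM in IFNG libraries, against 1.69 ± 0.52 CPM in Control ones (mean ± SD, n = 6 each).

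Tnr (chr1:159523769-159931729, plus strand) encodes tenascin-R, which cross-links lecticans in mature nets. It stood at 73.7, 135 and 158 CPM in IFNG libraries, against 92.1, 136 and 156 CPM in Control libraries. Its log2 fold change was -0.04 ± 0.15, with a 95% interval of -0.36 to 0.28 (adjusted p = 0.90). Its sign was not stable: on totals without the genes that rose it was 0.07, and without IFNG 5, the lowest library, 0.10. The nearest genes were Map2, of dendritic microtubules, and the semaphorin receptor gene Plxna4, at 0.18 and 0.19. The ratio of Tnr to Tnc per kb was 2.36 ± 0.651 in IFNG and 1.6 ± 0.539 in Control libraries (SD, n = 6 each), with overlapping ranges of 1.46 to 3.37 in IFNG and 0.933 to 2.17 in Control libraries. In all, 443 exon bases of Tnr and 176 of Tnc are shared with a gene on the opposite strand. Those neighbours were near 0, at 0 counts for the one at Tnr, and 13 counts over the IFNG and 43 over the Control libraries for the one at Tnc.

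Has2 (chr15:56665627-56694539, minus strand) encodes a synthase of long hyaluronan chains, and it had the largest fold change of the 10 at a low level. It stood at 4.44, 4.80 and 6.42 CPM in IFNG libraries, against 0, 0.346 and 1.53 CPM in Control libraries. These were 65 to 215 counts in IFNG libraries and 0 to 27 counts in Control libraries, and no libraries of the groups overlapped. On the log2 scale the fold change was 3.33 ± 0.50 (adjusted p = 4.72e-05). It was 4.05 without Control 5, which held 27 of the 55 Control counts, and 4.21 in limma-voom. Per 100 CPM of astrocyte markers Has2 stood at 0.0727 ± 0.0117 CPM in IFNG libraries, against 0.0159 ± 0.017 CPM in Control libraries. Has3, another hyaluronan synthase gene, did not pass: it stood at 10.6 ± 1.52 CPM in IFNG libraries, against 14 ± 3.65 CPM in Control libraries (adjusted p = 0.0936). The third, Has1, was too low to be tested and held 8 counts over the IFNG and 19 over the Control libraries. Has2os, an antisense RNA that shares 182 exon bases with Has2, held 115 counts over the IFNG and 12 over the Control libraries, and reads from the shared stretch cannot be assigned to one of them. The nearest listed genes, Syt2 and Ly6c1, lay at root mean square differences of 0.85 and 1.02, so none ran close.

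**Figure D3:**
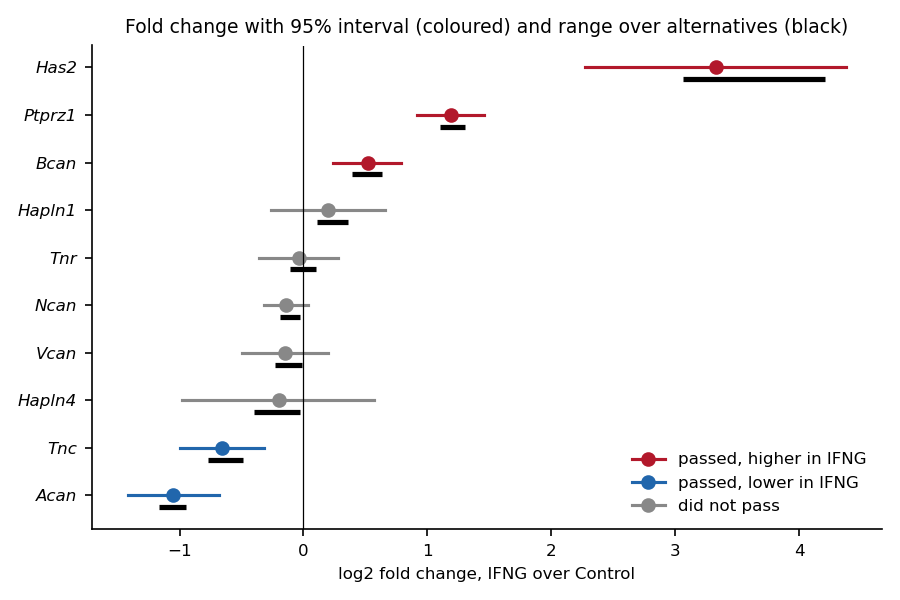
Log2 fold change of each gene, IFNG over Control (points), with its 95% interval (coloured lines) and the range over the 22 alternatives (black lines). Ptprz1, Bcan and Has2 lie above 0 and Acan and Tnc below 0 throughout, while the range of Tnr, from -0.11 to 0.10, spans 0.

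Levels per kb of exon put the genes in an order that differed little between the groups outside Ptprz1, Acan and Has2. In IFNG libraries the order was Ptprz1 (119 ± 27.0 CPM per kb), Ncan (106 ± 8.64), Bcan (92.6 ± 22.2), Tnr (10.1 ± 2.28), Tnc (4.37 ± 0.925), Hapln1 (2.5 ± 0.816), Vcan (2.42 ± 0.557), Acan (1.77 ± 0.288), Has2 (1.22 ± 0.187) and Hapln4 (0.715 ± 0.31). The first 3 overlapped one another over libraries, as did Tnr and Tnc and each pair of neighbours from Hapln1 down. Bcan and Tnr, and Tnc and Hapln1, did not. In Control libraries it was Ncan (117 ± 10.3), Bcan (64.7 ± 6.41), Ptprz1 (52.3 ± 5.28), Tnr (10.3 ± 1.9), Tnc (6.92 ± 1.97), Acan (3.67 ± 1.05), Vcan (2.68 ± 0.692), Hapln1 (2.18 ± 0.57), Hapln4 (0.826 ± 0.358) and Has2 (0.12 ± 0.132). There the neighbours that did not overlap were Ncan and Bcan, Ptprz1 and Tnr, Tnc and Acan, and Hapln1 and Hapln4. The order depends on the length used: with the longest transcript in place of all exons, Bcan stood at 120 CPM per kb and Ncan at 106 in IFNG libraries.

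**Figure D4:**
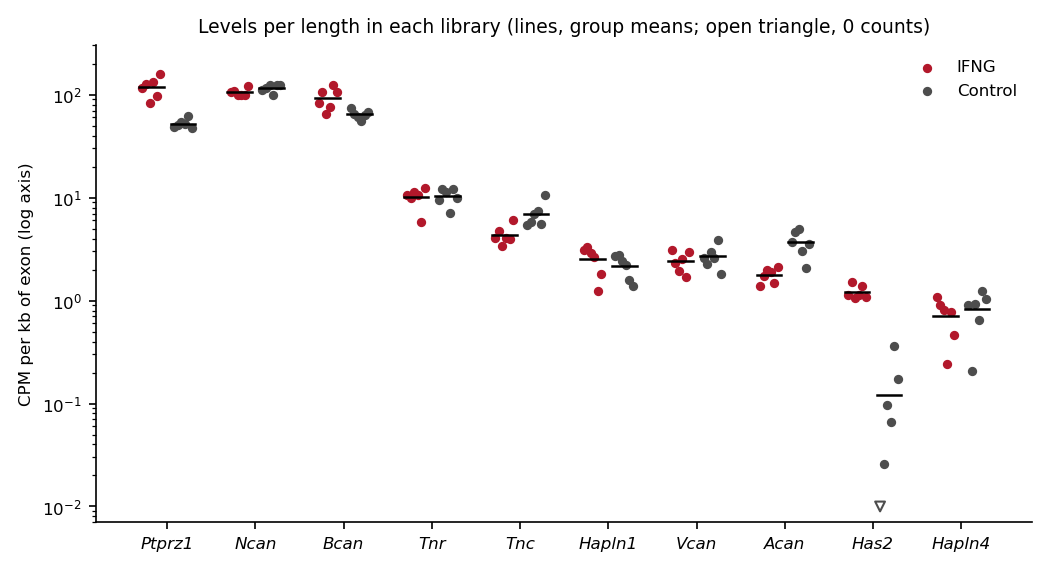
Level per kb of exon (CPM per kb, log axis) of each gene in the 6 IFNG libraries (red, left of each pair) and the 6 Control libraries (grey), ordered by the IFNG mean, with lines at the group means. The group means of Ptprz1, Ncan and Bcan lie between 52.3 and 119 CPM per kb and those of the other 7 genes at 10.3 or lower. The open triangle marks the Control library with 0 Has2 counts.

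Genes that make, cut, bind or surround this matrix moved both ways, except that no tested chondroitin synthesis gene fell. The share that rose or fell was 50% of tested hyaluronan genes, 14.3% of chondroitin genes and 55.6% of proteases and inhibitors. It was 25% of receptors and ligands and 35.7% of other proteoglycans and glycoproteins, against 24.1% of all tested genes. Of 14 listed genes of hyaluronan synthesis, binding and turnover, 12 were tested, of which 4 rose and 2 fell (median log2 fold change 0.17). Cd44, the main hyaluronan receptor, averaged 67.9 ± 6.77 CPM over the IFNG libraries, against 20.4 ± 6.62 CPM over the Control libraries (SD, n = 6 each). It rose by 1.74 on the log2 scale, at an adjusted p of 5.36e-07. The lysosomal hydrolase gene Hexa rose by 0.79, the hyaluronidase gene Hyal1 by 1.09 and Hyal3, near the threshold at an adjusted p of 0.0406 on 177 counts over the IFNG and 59 over the Control libraries, by 1.31. The count of higher genes in this list was 3 in place of 4 in 9 of the 12 fits that left out 1 library, with both other filters, with the replicate block and against a fold change of 1.2. Cemip and Cemip2, whose products cut or bind extracellular hyaluronan, fell by 0.46 and 0.66. Hyal2 did not pass (0.29, adjusted p = 0.256).

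Of 22 listed genes of chondroitin sulfate synthesis, 21 were tested; 3 rose, 0 fell, and the median was 0.09 on the log2 scale. Chst3, which adds sulfate at carbon 6 of chondroitin, averaged 22.1 ± 3.8 CPM over the IFNG libraries, against 9.49 ± 1.16 CPM over the Control libraries (SD, n = 6 each). It rose by 1.22 on the log2 scale, at an adjusted p of 1.25e-06. Chpf2, of chain polymerisation, rose by 0.52 and Chst15, another sulfotransferase gene, by 0.35. Chpf did not pass (0.09, adjusted p = 0.623).

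Of 21 matrix proteases and inhibitors, 18 were tested, of which 5 rose and 5 fell, with a median of 0.01. Plat, for tissue plasminogen activator, averaged 232 ± 67.3 CPM over the IFNG libraries, against 53.3 ± 5.42 CPM over the Control libraries (SD, n = 6 each). It rose by 2.12 on the log2 scale, at an adjusted p of 2.73e-09. The membrane metalloprotease gene Mmp14 rose by 1.70, the cathepsin gene Ctsb by 0.90, and the inhibitor genes Timp3 and Timp2 by 0.81 and 0.25. Adamts5, of an enzyme that cleaves aggrecan and other lecticans, fell by 1.44 at a low level, Adamts8 by 0.76, Mmp15 by 0.35, Serpine2 by 0.32 and Mmp24 by 0.30. When 1 library was left out, 3 rather than 5 fell without Control 3, 4, 5 or 6 or IFNG 1, 3 or 6. Adamts4, of another lectican-cleaving enzyme, stood at 0.18 ± 0.35 (adjusted p = 0.767) and Mmp16, the most abundant of the rest, at 0.01 (adjusted p = 0.966).

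Of 25 receptors and bound ligands of the matrix, 24 were tested, of which 3 rose and 3 fell, with a median of 0.06. Mdk, for midkine, a ligand of Ptprz1, averaged 69.5 ± 23.0 CPM over the IFNG libraries, against 27.0 ± 3.16 CPM over the Control libraries (SD, n = 6 each). It rose by 1.36 on the log2 scale, at an adjusted p of 4.33e-06. Ptn, for pleiotrophin, its other well-known ligand, was at 0.15 ± 0.13 (adjusted p = 0.432), and Cntn1, a neuronal partner of Ptprz1, at -0.04 ± 0.10 (adjusted p = 0.836). The syndecan genes Sdc2 and Sdc4 rose by 0.74 and 0.70. Sema3a, a guidance protein held in nets, fell by 0.52, the pentraxin gene Nptx2 by 0.58 and Rtn4rl1, of a receptor for chondroitin sulfate, by 0.51. Ptprs, of another such receptor, did not pass (0.07, adjusted p = 0.677).

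Of 31 other proteoglycans and glycoproteins of brain matrix, 28 were tested, of which 6 rose and 4 fell, with a median of 0.00. Sparcl1, for hevin, an astrocyte-secreted protein, averaged 2453 ± 284 CPM over the IFNG libraries, against 995 ± 87.3 CPM over the Control libraries (SD, n = 6 each). It rose by 1.30 on the log2 scale, at an adjusted p of 1.20e-09. Sparc rose by 2.05, the thrombospondin gene Thbs1 by 2.43, the fibronectin gene Fn1 by 0.59, the laminin gene Lamc1 by 0.53 and Cspg5 by 0.45. The genes that fell were Gpc5, Gpc3, Spock1 and Spock2, by 0.77, 0.70, 0.33 and 0.29. Agrn did not pass (0.30, adjusted p = 0.0621).

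**Figure D5:**
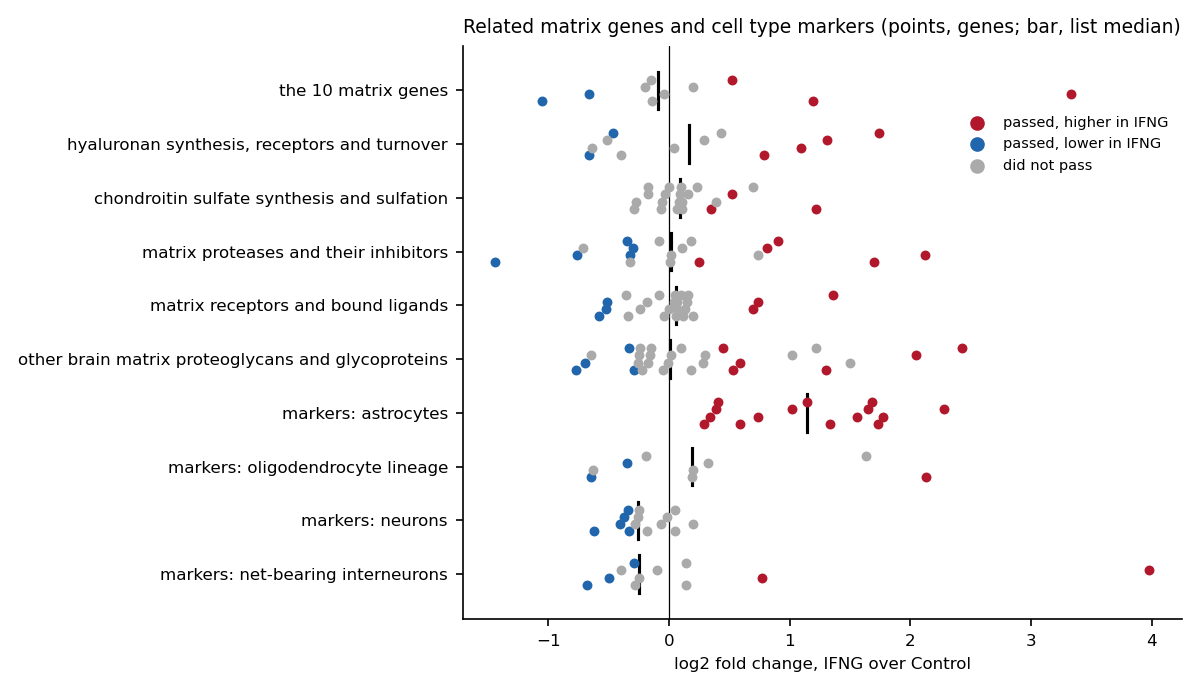
Log2 fold change, IFNG over Control, of each tested gene in the 10-gene family (top), in 5 lists of related matrix genes and in 4 lists of cell type markers; bars mark list medians. The medians of the matrix lists lie between 0.00 and 0.17, that of astrocyte markers at 1.14, and those of neurons and net-bearing interneurons at -0.25.

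Markers of the cell types that could supply these RNAs stood as follows. The share that rose or fell was 100% of tested astrocyte, 66.7% of progenitor and 45.5% of interneuron markers. It was 42.9% of fibroblast and mural, 35.7% of neuronal and 33.3% of oligodendrocyte lineage markers, against 24.1% of all tested genes. Microglial and endothelial lists, with few genes tested, were at 66.7% and 50%. Among tested astrocyte markers, all 15 higher, rises ran from 0.29 (Atp1b2) to 2.28 (Id3), and Aldh1l1, Ndrg2 and Slc1a3 rose by 1.56, 1.33 and 1.65. S100b, with 55 counts over the libraries of each group, was too low to be tested. So was Gjb6, with 0 counts over the IFNG and 12 over the Control libraries. Of 9 tested oligodendrocyte lineage markers Cnp rose by 2.13, and Pdgfra and Olig2 fell by 0.65 and 0.35. Without IFNG 2, 1 marker of that list fell. Olig1 did not pass (-0.19, adjusted p = 0.153). The summed level of that list was 310 to 355 CPM in IFNG libraries, against 288 to 392 CPM in Control libraries. Of 14 neuronal markers 5 fell, among them Rbfox3, Stmn2, Snap25 and Gap43, by 0.37, 0.41, 0.34 and 0.33, with sums of 4576 to 5771 CPM in IFNG libraries, against 5811 to 6610 CPM in Control libraries. Leaving out 1 library, the count of lower markers was 2 without Control 4, Control 5, IFNG 2 or IFNG 6 and 3 without Control 6. Map2 did not pass (-0.28, adjusted p = 0.121). Of 11 tested genes in the list for net-bearing interneurons, not all confined to such cells, 2 rose and 3 fell, and Slc32a1 did not pass (0.14, adjusted p = 0.271). Its sums were 659 to 815 CPM in IFNG libraries, against 710 to 1026 CPM in Control libraries.

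Of 9 markers of progenitors and dividing cells Sox2, Pax6, Nes and Fabp7 rose, by 1.05, 1.11, 0.66 and 0.39, and Mki67 and Pcna fell, by 0.61 and 0.34. With any 1 library of Control 2, Control 3, Control 5, IFNG 2 and IFNG 5 left out, 1 marker of this list fell, and Top2a did not pass (0.12, adjusted p = 0.658). The list summed to 671 to 891 CPM in IFNG libraries, against 485 to 687 CPM in Control libraries. Of 7 tested fibroblast and mural markers Igf2, Pdgfrb and Fbln1 rose, by 5.18, 1.09 and 0.52, while Col6a1 (-0.21, adjusted p = 0.170) did not pass. Their sum was 83.7 to 117 CPM in IFNG libraries, against 70.8 to 97.9 CPM in Control libraries. Microglial markers summed to 25 to 41.6 CPM in IFNG libraries, against 16.6 to 28.0 CPM in Control libraries, of which Sall1 made up most, at 30.5 ± 5.79 CPM in IFNG libraries, against 18.9 ± 4.22 CPM in Control ones (mean ± SD, n = 6 each). P2ry12, a defining microglial gene, reached 0.965 ± 0.42 CPM in IFNG libraries, against 0.0719 ± 0.154 CPM in Control libraries. Itgam did not pass (-0.41, adjusted p = 0.711). Only 3 of the 12 listed microglial genes held enough counts to be tested. Among the untested ones, the mean of Cx3cr1, Csf1r, Aif1 and Tyrobp was lower in the IFNG group. That of Tmem119, C1qa, C1qb, C1qc and Trem2 was higher. None of these means exceeded 0.58 CPM, the value of Csf1r in the Control group. Endothelial markers summed to 2.38 to 6.61 CPM in IFNG libraries, against 1.21 to 4.13 CPM in Control libraries, with means of 4.3 and 2.62 CPM. The higher sum in IFNG rested on Ly6c1, which rose, at 2.44 ± 0.759 CPM in IFNG libraries, against 0.00807 ± 0.0198 CPM in Control libraries. Pecam1 did not pass (-0.43, adjusted p = 0.547), and Cldn5 held 0 counts in both groups. The part of each cell type in the changes of the 10 genes was not tested.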

How the data were processed

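RNA was measured by sequencing of poly(A) libraries in 12 samples from cultured mouse cortical neurons, 6 of the IFNG and 6 of the Control group. The authors deposited raw counts per Ensembl gene, whole numbers that were not normalized, for 43629 identifiers. Per the submitters' processing notes, STAR 2.4 and DESeq2 were used and the builds GRCm39 and mm10 are named, without saying what each was used for. Counter, strand setting and annotation are not given in the sources read here. Without the strand setting, reads from stretches where genes overlap on opposite strands cannot be assigned to one gene. Symbols, positions and exon lengths came from GENCODE M21 (GRCm38), which matched 42548 identifiers and all 10 members.

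The comparison of IFNG with Control was fitted across all genes in edgeR 4.0.16 under R 4.3.3. It used the filterByExpr filter, TMM scaling, two-sided quasi-likelihood F-tests and Benjamini-Hochberg adjustment at 0.05. All adjusted p-values of genes come from that fit over 15241 genes unless another tool is named. Standard errors come from the size of the log2 fold change over the root of its F. The 95% intervals use the total degrees of freedom of the fit, residual plus those gained by pooling over genes. CPM are counts scaled to a common total with TMM, and CPM per kb divides them by the union of a gene's exons. The log2 CPM used a prior count of 2. The test was tested on simulated data with known fold changes.

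Libraries held 13875435 to 34239380 counts. Chi-square comparisons gave at least 7.3 per gene for each pair of libraries in a group, so all 12 were kept apart. It is not stated whether libraries of one group were separate cultures or animals. The p-values set the difference between groups against the spread among these samples, and that spread may be technical. Alternatives were 3 other scalings, 2 other filters, the replicate number as a block, DESeq2 1.42.0, limma-voom (limma 3.58.1), a test against a fold change of 1.2, and each library left out. A fit without Control 4 and IFNG 5 together was added after seeing the data.

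The 10 members and the 13 gene lists (5 of related matrix genes, 8 of cell type markers) were chosen with earlier results of these data known. From each list, the genes named are the most abundant that did not pass and up to 3 that passed, by smallest p. Where 5 or fewer genes of a list changed in a direction, the others are also named, chosen after their values were seen. Nearest genes in expression were the 2 listed genes with the smallest root mean square difference of log2 CPM over the 12 libraries, after each gene was centred on its own mean. Ratios of members to summed markers were likewise chosen after seeing the data. The ratios of Bcan to Acan and of Ncan to Bcan were not among those planned. Promoter windows came from RefSeq (GRCm38.p6), and the motifs searched in them were chosen with the members known, 2 of them in place of other forms whose matches had been seen. Results of some listed genes are not reported here; list counts and tests still include them.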

Additional observations from a re-analysis of the deposited data

Results flagged for a closer look

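In groups of 6 libraries, 5 of the 38 sets of values looked at held a library apart from the other 5, where chance alone flags about 5% of sets. Tnr was low in IFNG 5, at 6.21 log2 CPM, against 7.01 to 7.31 in the other IFNG libraries. Hapln4 was low in Control 2, at -0.11 log2 CPM, against 1.40 to 2.31 in the other Control libraries, on 15 counts. The ratio of Hapln1 to Hapln4 per kb was high in IFNG 4 (10.8, where the other IFNG libraries held 1.61 to 3.92) and in Control 2 (13.2, against 1.28 to 3.41 in the other Control libraries); Hapln4 held 13 counts in IFNG 4. The summed lectican level was low in Control 4, at 161 CPM per kb against 188 to 199 in the other Control libraries.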

How the results depend on the processing

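The 5 members that passed kept their direction in all 22 alternatives, and Acan, Tnc, Ptprz1 and Has2 also stayed past the threshold. Bcan lost its call when tested against a fold change of 1.2 (log2 fold change 0.52, adjusted p = 0.0663), where 2 members were higher and 2 lower. Tnr, which did not pass, changed sign on totals without the genes that rose (0.07), without Control 4 and IFNG 5 together (0.01), and in 3 of the fits that left out 1 library, whose 12 values ran from -0.11 to 0.10; those were the fits without Control 2 (0.02), Control 5 (0.02) or IFNG 5 (0.10). Leaving out 1 library gave 1924 to 2332 higher genes and 1047 to 1699 lower genes over the whole table. Of all genes, 750 were lower with risen genes left out of the totals and 458 against a fold change of 1.2, in place of 1492. Same-numbered libraries did not deviate together in all 6 pairs (correlations of -0.000964 to 0.124), and 2 of the 6 IFNG libraries correlated best with their own number. With the replicate block 2114 genes were higher and 1563 lower, no member's call changed, and Has2 stood at 3.65. Among the lists, counts of lower genes with risen genes left out of the totals were 2 in place of 5 (proteases, and again neurons), 2 in place of 4 (other proteoglycans), 1 in place of 2 (oligodendrocyte lineage) and 0 in place of 2 (progenitors), and 1 neuronal marker was higher. Against a fold change of 1.2 they were 1, 1, 2, 1 and 0 for those lists, and 1 each for the hyaluronan genes and for receptors and ligands. With the block 2 oligodendrocyte markers were higher and 1 progenitor marker lower, and limma-voom also gave 2 higher oligodendrocyte markers. With no filter 3 neuronal markers were lower. Higher astrocyte markers numbered 11 against a fold change of 1.2, 12 without Control 2 and 13 to 15 in the other alternatives, in place of 15. With at least 1 CPM in 6 libraries 1 microglial and 0 endothelial markers were higher (2 and 1 in the full fit). Without Control 4 and IFNG 5 together 3 neuronal markers and 1 fibroblast marker were lower. The causes were not tested. Coding length in place of exon length moved the level per kb of all 10 members in IFNG libraries by more than 1 SD; the fold change of a gene does not depend on it. Depth limits Hapln4 and Has2, which held 350 and 55 counts over the Control libraries.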

Other observations

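In the list for net-bearing interneurons, whose genes are not all confined to cells with nets, genes moved both ways. Syt2, which encodes a synaptic vesicle calcium sensor and marks fast-spiking interneuron terminals, averaged 18.8 ± 6.13 CPM over the IFNG libraries, against 1.18 ± 0.564 CPM over the Control libraries (SD, n = 6 each). In log2 units the rise was 3.98 ± 0.28, at an adjusted p of 6.85e-10 in edgeR's quasi-likelihood test. Among the other listed genes of net-bearing interneurons, Sst rose by 0.77, and Gad1 and Kcnc1 fell by 0.68 and 0.29 on the log2 scale. Pvalb, the defining marker of the interneurons that carry most nets in the cortex, held 78 counts over the IFNG and 32 over the Control libraries and was too low to be tested.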
